A study of Mus musculus with 20 samples.

Results

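The peroxisome proliferator-activated receptors (PPARs), the PGC-1 coactivators and the receptors and cofactors that work with them were followed in livers of *Crem* knockout (KO) and wild-type (WT) mice at 2 times of day. The 10 genes were chosen by name for this role: *Ppara*, *Ppard*, *Pparg*, *Ppargc1a*, *Ppargc1b*, *Rxra*, *Nr1h3*, *Hnf4a*, *Nrip1* and *Ncor1*. A probe set listed for that gene alone was at hand for 9 of the 10 genes, among 19661 such genes in all. *Ppargc1a* had 2 of them (10529977 and 10529979), which makes 10 probe sets for these genes. *Ncor1* had no probe set under its name in the annotation used here and was not analysed. Whole-liver RNA of 1 mouse was hybridized to each of 20 arrays, with 5 mice in each of 4 groups: *Crem*-/- (KO) mice at 12 h, KO mice at 0 h, WT mice at 12 h and WT mice at 0 h. All mice were 8 weeks old, untreated and from a mixed background (129Pas x C57Bl/J), had food at all times, and were killed when the light came on (0 h) or went off (12 h). Values are log2 expression after robust multi-array averaging (RMA), so a difference of 1 is a doubling, and levels are compared between groups and never between probe sets.

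PPARs are nuclear receptors that bind fatty acids and their derivatives and act on DNA as pairs with a retinoid X receptor such as RXRα. PPARα drives fatty acid oxidation and ketone production in liver, PPARγ drives fat storage in adipocytes, and PPARδ is widely expressed. PGC-1α and PGC-1β (*Ppargc1a*, *Ppargc1b*) are coactivators that bind such receptors and raise mitochondrial and gluconeogenic transcription, and *Ppargc1a* is a textbook target of cyclic AMP and CREB. LXRα (*Nr1h3*) senses oxysterols, and HNF4α (*Hnf4a*) maintains the hepatocyte programme. RIP140 (*Nrip1*) and NCoR1 (*Ncor1*) repress nuclear receptors. CREM belongs with CREB to the family of proteins that bind cyclic AMP response elements (CREs).

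Since the deleted gene encodes a CRE-binding protein, RefSeq promoter windows of the genes (GRCm38.p6, 250 bases before to 50 after a start) were searched for the CRE and other letters on both strands. The search covered 14 windows of 8 of the genes, *Ppargc1b* and *Ncor1* not among them. The full CRE, TGACGTCA, was in 0 of the 14 windows and in 1.79% of all 32851 windows. Its core TGACG, which the full site also holds, was in 3 windows, 1 each of *Ppargc1a*, *Ppara* and *Ppard*, and in 20.8% of all windows. The nuclear receptor core AGGTCA was in 3 windows, 2 of *Pparg* and 1 of *Rxra*, and in 16.3% of all. The DR1 element, a pair of these cores in the same direction with 1 base between them, was in 0 of the 14 (0.0396% of all), as were the E-box CACGTG (7.15%) and the D-box TTATGTAA (0.938%), which clock proteins bind. The 3 windows with a TGACG core are shown from 250 bases before the start to its first base, because their genes had the widest changes between the times of day in WT livers, with the core in capitals. They are *Ppargc1a* (chr5:51567725-51567975, minus strand, core read on the opposite strand at bases -49 to -45), *Ppara* (chr15:85735526-85735776, plus strand, bases -222 to -218) and *Ppard* (chr17:28232504-28232754, plus strand, bases -4 to 1). A match says only that these letters are there.
Ppargc1a: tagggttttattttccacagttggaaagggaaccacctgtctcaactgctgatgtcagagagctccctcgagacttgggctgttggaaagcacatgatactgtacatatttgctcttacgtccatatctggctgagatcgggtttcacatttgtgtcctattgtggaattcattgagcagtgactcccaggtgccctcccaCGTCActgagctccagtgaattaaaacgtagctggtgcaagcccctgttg
Ppara: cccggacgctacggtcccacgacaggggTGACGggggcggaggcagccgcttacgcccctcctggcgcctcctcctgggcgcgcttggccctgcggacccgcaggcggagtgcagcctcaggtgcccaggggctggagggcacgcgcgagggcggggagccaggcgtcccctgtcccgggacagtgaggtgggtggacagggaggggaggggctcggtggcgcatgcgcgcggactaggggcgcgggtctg
Ppard: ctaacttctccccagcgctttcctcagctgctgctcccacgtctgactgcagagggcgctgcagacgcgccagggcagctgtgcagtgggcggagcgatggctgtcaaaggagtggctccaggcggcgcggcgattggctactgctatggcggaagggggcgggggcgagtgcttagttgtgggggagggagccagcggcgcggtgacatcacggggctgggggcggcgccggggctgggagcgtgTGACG

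The arrays had medians of 7.07 to 7.24, and pairs of arrays correlated at 0.969 to 0.994 over all probe sets. *Crem* lay between 7.39 and 7.83 in KO livers at 12 h, between 7.43 and 8.17 in KO livers at 0 h, between 7.90 and 8.02 in WT livers at 12 h and between 8.11 and 8.54 in WT livers at 0 h. KO mouse 1 (8.17) was the one KO mouse above a WT mouse of its time (mouse 80, 8.11). *Crem* differed by -0.42 (SE 0.08) between KO and WT over both times, with an adjusted p (Benjamini-Hochberg over 25689 probe sets, limma) of 0.135, and of 0.0494 without KO mouse 1. In a principal component analysis WT mouse 80 stood apart from its group on the second component (-31.4). WT mouse 170 had the highest first component (32.3, against 19.1 to 27.1 in the other WT livers at 12 h). Values without both mice are given where they bear on a result. The labels put the 0 h livers of both genotypes in batches 1 to 4 and all 12 h livers in batch 5, so time of day and batch cannot be told apart. Fewer cells of a type and less RNA per cell cannot be told apart in whole liver either. Of 8 hepatocyte markers, such as *Alb* and *Ttr*, 7 were measured, all brighter than the median probe set. Their mean level ran from 13.55 to 13.62 in KO livers at 12 h and from 13.56 to 13.62 at 0 h. In WT livers it ran from 13.66 to 13.69 at 12 h and from 13.55 to 13.66 at 0 h. At 12 h every WT liver thus lay above every KO liver, as also for stellate cell markers (9.02 to 9.10 against 8.79 to 8.97). The bearing on the genes described here was not tested. Between 12 h and 0 h 0 of the 7 passed in KO livers and 2 (28.6%), both higher, in WT livers. Of all probe sets brighter than the median, 33.0% passed in KO and 40.5% in WT livers.

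**Figure D1:**
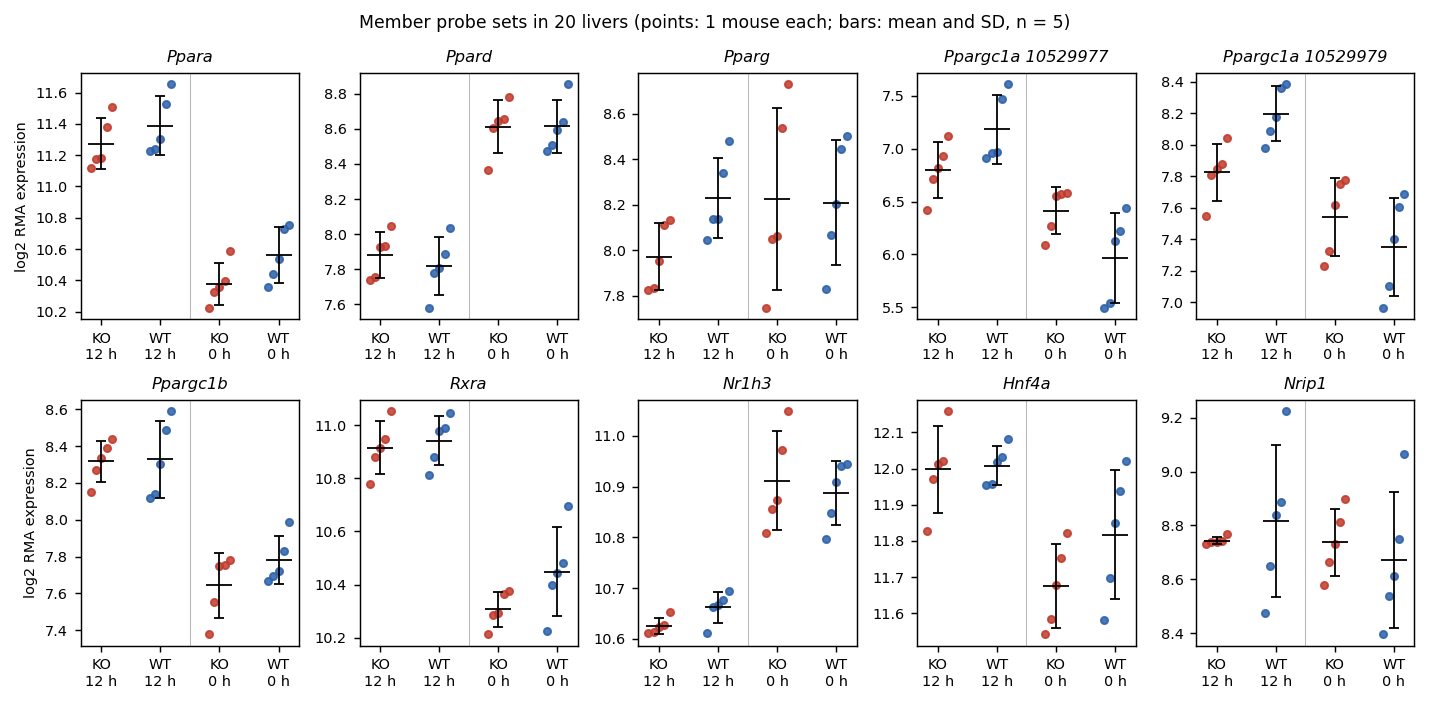
Log2 RMA expression of the 10 probe sets (vertical axis, own scale in each panel) in KO and WT livers at 12 h and at 0 h. Each point is 1 mouse and bars are the mean and SD of 5 mice. *Ppara*, *Ppargc1b* and *Rxra* lie higher at 12 h in both genotypes with no overlap and *Ppard* and *Nr1h3* lower, while the KO and WT points overlap at each time for all 10 probe sets.

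Most of these genes differed between the times of day. Between 12 h and 0 h, 6 of 10 probe sets passed an adjusted p of 0.05 in KO livers, 4 higher and 2 lower, and 7 of 10 in WT livers, 5 higher and 2 lower. Of all 25689 probe sets, 20.3% passed in KO livers (10.6% higher and 9.69% lower) and 27.8% in WT livers (13.5% higher and 14.3% lower). Among probe sets brighter than the median, where 9 of the 10 lie, 33.0% passed in KO livers and 40.5% in WT livers. The groups did not overlap for 6 of the 10 in KO livers (16.4% of all probe sets) and for 7 of the 10 in WT livers (17.5% of all). Genes that passed in both genotypes numbered 5 (*Ppara*, *Ppard*, *Ppargc1b*, *Rxra* and *Nr1h3*), *Hnf4a* passed in KO livers only and *Ppargc1a* in WT livers only, and no difference between the genotypes in these changes passed. The median change of the 10 probe sets was 0.30 in KO livers and 0.34 in WT livers, against -0.024 in KO and -0.027 in WT livers over all probe sets. The mean at 12 h lay outside the range of the 4 batch means at 0 h for 8 of the 10, the exceptions being *Pparg* and *Nrip1*, and those batch means spanned 0.12 to 0.56. Kupffer cell markers were lower at 12 h as well. Of 6, 2 passed in KO livers (33.3%) and 4 in WT livers (66.7%), all lower. Of all brighter probe sets, to which 5 of the 6 belong, 33.0% passed in KO and 40.5% in WT livers. The mean level of the 6 ran from 8.94 to 9.33 in KO livers at 12 h and from 9.16 to 9.65 at 0 h. In WT livers it ran from 8.80 to 9.24 at 12 h and from 9.31 to 9.68 at 0 h. Of the other markers, 1 of 6 for stellate cells, 1 of 4 for cholangiocytes and 0 of 6 for sinusoidal endothelium passed in KO livers. The same markers gave 3, 1 and 1 in WT livers. No neutrophil (0 of 5) or lymphocyte (0 of 4) marker passed, but none of these was brighter than the median probe set. The part of Kupffer cells and these other cells in the changes of the genes described here was not tested.

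**Figure D2:**
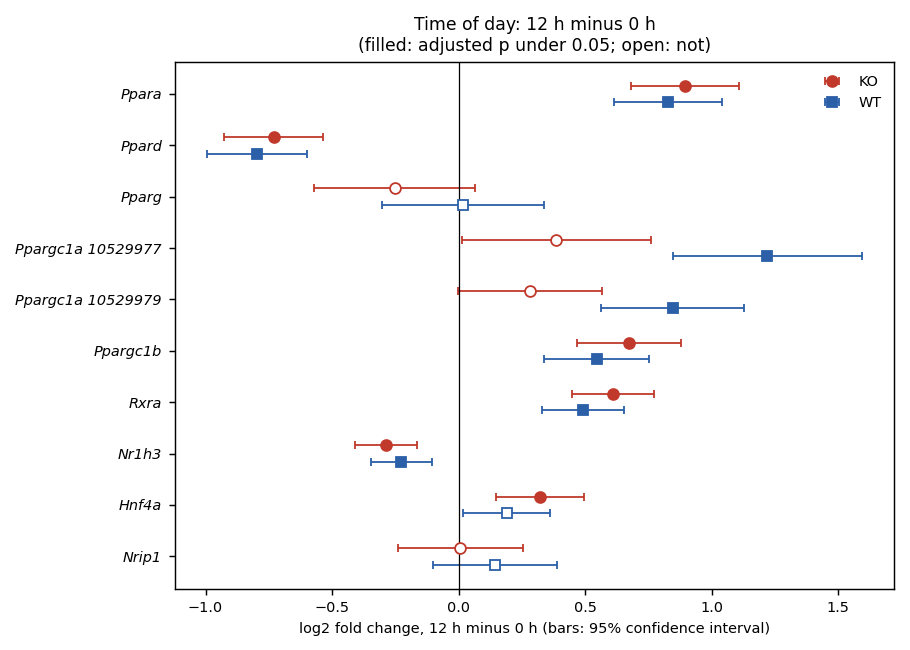
Log2 fold change (12 h minus 0 h, horizontal axis) of each probe set in KO livers (circles) and WT livers (squares), with 95% confidence intervals from limma. Filled symbols passed an adjusted p of 0.05. The KO and WT intervals of *Ppargc1a* probe set 10529977 do not overlap (0.014 to 0.76 in KO and 0.85 to 1.59 in WT), although the difference did not pass over all probe sets.

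*Ppara*, the receptor of fatty acid oxidation, was higher at 12 h in both genotypes. Its log2 expression was 11.12, 11.18, 11.18, 11.38 and 11.51 in KO livers at 12 h, against 10.22, 10.33, 10.36, 10.39 and 10.59 in KO livers at 0 h. In WT livers it was 11.23, 11.24, 11.30, 11.53 and 11.65 at 12 h, against 10.35, 10.44, 10.53, 10.73 and 10.76 at 0 h. Every mouse at 12 h stood above every mouse at 0 h. The difference was 0.90 (SE 0.10, adjusted p = 1.77e-06, 1.86-fold) in KO livers and 0.83 (SE 0.10, adjusted p = 4.75e-06, 1.77-fold) in WT livers. In the order of the group means, WT at 12 h (11.39 ± 0.19, SD, n = 5) stood first, followed by KO at 12 h (11.27 ± 0.16), WT at 0 h (10.56 ± 0.18) and KO at 0 h (10.38 ± 0.13), and the neighbours of one time overlapped.

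*Ppard*, the widely expressed receptor, went the other way. It was 7.74, 7.75, 7.93, 7.93 and 8.04 in KO livers at 12 h, against 8.37, 8.60, 8.65, 8.66 and 8.78 in KO livers at 0 h. WT livers had 7.58, 7.78, 7.81, 7.88 and 8.03 at 12 h, against 8.48, 8.51, 8.59, 8.64 and 8.85 at 0 h. No mouse at 12 h reached the lowest mouse at 0 h. *Ppard* thus fell by 0.73 (SE 0.09, adjusted p = 7.64e-06, 1.66-fold lower) in KO livers and by 0.80 (SE 0.09, adjusted p = 2.54e-06, 1.74-fold lower) in WT livers, with nearly the same means in both genotypes at 0 h (8.61 ± 0.15 in KO and 8.61 ± 0.15 in WT).

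*Pparg*, the receptor of fat storage, had no change of time that passed. It was 7.83, 7.83, 7.95, 8.11 and 8.14 in KO livers at 12 h, against 7.74, 8.05, 8.06, 8.54 and 8.73 in KO livers at 0 h. The WT values were 8.05, 8.14, 8.14, 8.34 and 8.48 at 12 h, against 7.83, 8.07, 8.20, 8.44 and 8.50 at 0 h. The groups overlapped throughout, and the spread in KO livers at 0 h (SD 0.40) was the widest of the 4. The differences were -0.25 (95% interval -0.57 to 0.066, adjusted p = 0.268) in KO livers and 0.018 (-0.30 to 0.34, adjusted p = 0.945) in WT livers. With 1 array left out the KO difference ran from -0.37 (without KO mouse 144) to -0.13 (without KO mouse 77) and never passed. The adipocyte markers, of which 4 of 5 were measured, averaged 6.10 to 6.31 in KO livers at 12 h and 6.19 to 6.48 at 0 h. In WT livers they averaged 6.20 to 6.64 at 12 h and 6.18 to 6.45 at 0 h. Between the times 0 of them passed, but 0 of the 4 were brighter than the median probe set.

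*Rxra*, the DNA-binding partner of all PPARs and of LXRα, was higher at 12 h. It was 10.78, 10.88, 10.91, 10.95 and 11.05 in KO livers at 12 h, against 10.21, 10.28, 10.29, 10.37 and 10.37 in KO livers at 0 h. In WT livers it was 10.81, 10.88, 10.98, 10.99 and 11.05 at 12 h, against 10.23, 10.40, 10.44, 10.48 and 10.70 at 0 h. The 12 h and 0 h mice did not overlap in either genotype, and WT mouse 78 came nearest at 0 h. The difference was 0.61 (SE 0.08, adjusted p = 7.16e-06, 1.53-fold) in KO livers and 0.49 (SE 0.08, adjusted p = 7.88e-05, 1.41-fold) in WT livers.

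*Nr1h3*, the oxysterol receptor LXRα, was lower at 12 h by a small amount with a narrow spread. It was 10.61, 10.61, 10.62, 10.63 and 10.65 in KO livers at 12 h, against 10.81, 10.86, 10.87, 10.97 and 11.05 in KO livers at 0 h. WT livers had 10.61, 10.66, 10.67, 10.68 and 10.69 at 12 h, against 10.80, 10.85, 10.91, 10.94 and 10.94 at 0 h. All 10 mice at 12 h were below all 10 mice at 0 h, across genotypes too. *Nr1h3* fell by 0.29 (SE 0.06, adjusted p = 0.0010, 1.22-fold lower) in KO livers and by 0.23 (SE 0.06, adjusted p = 0.0062, 1.17-fold lower) in WT livers. With each array centred on its median the WT change was -0.14 and did not pass (adjusted p = 0.086).

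*Hnf4a*, the hepatocyte factor, was higher at 12 h in KO livers. It was 11.83, 11.97, 12.01, 12.02 and 12.16 in KO livers at 12 h, against 11.54, 11.58, 11.68, 11.75 and 11.82 in KO livers at 0 h. The WT values were 11.95, 11.96, 12.02, 12.03 and 12.08 at 12 h, against 11.58, 11.70, 11.85, 11.94 and 12.02 at 0 h. The KO mice of the 2 times just failed to overlap, and WT mouse 78 at 0 h lay among the WT mice at 12 h. The difference was 0.32 (SE 0.08, adjusted p = 0.0076, 1.25-fold) in KO livers and 0.19 (SE 0.08, adjusted p = 0.090) in WT livers. Without WT mouse 78 the WT difference was 0.24 (adjusted p = 0.038), and with centred arrays it was 0.28 (adjusted p = 0.020).

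*Ppargc1a*, which encodes PGC-1α, was higher at 12 h in WT livers on both of its probe sets. On probe set 10529977 its log2 expression was 6.42, 6.71, 6.82, 6.94 and 7.12 in KO livers at 12 h, against 6.09, 6.27, 6.55, 6.57 and 6.58 in KO livers at 0 h. In WT livers it was 6.91, 6.96, 6.97, 7.47 and 7.61 at 12 h, against 5.49, 5.54, 6.12, 6.22 and 6.44 at 0 h. The WT mice did not overlap between the times, while 1 KO mouse at 12 h (mouse 109) lay within the range of KO mice at 0 h. The change was 0.39 (SE 0.18, adjusted p = 0.138, 1.31-fold) in KO livers and 1.22 (SE 0.18, adjusted p = 3.41e-05, 2.33-fold) in WT livers, the widest of all 10 probe sets. This probe set was also the dimmest of the 10 (mean 6.59 over all arrays) and the only 1 below the median brightness. It was therefore absent from the fit on brighter probe sets alone.

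Probe set 10529979 of *Ppargc1a* gave the same order of groups. It was 7.55, 7.81, 7.84, 7.88 and 8.04 in KO livers at 12 h, against 7.23, 7.33, 7.62, 7.75 and 7.78 in KO livers at 0 h. WT livers had 7.98, 8.09, 8.18, 8.36 and 8.38 at 12 h, against 6.96, 7.10, 7.40, 7.60 and 7.69 at 0 h. Again only KO mouse 109 bridged the times in KO livers, and no WT mouse did. The change was 0.28 (SE 0.14, adjusted p = 0.154, 1.22-fold) in KO livers and 0.85 (SE 0.14, adjusted p = 9.50e-05, 1.80-fold) in WT livers. On both probe sets WT at 12 h had the highest mean and WT at 0 h the lowest, with the KO means between them.

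*Ppargc1b*, which encodes PGC-1β, was higher at 12 h in both genotypes. It was 8.15, 8.27, 8.33, 8.39 and 8.44 in KO livers at 12 h, against 7.38, 7.55, 7.75, 7.76 and 7.78 in KO livers at 0 h. The WT values were 8.12, 8.14, 8.30, 8.49 and 8.59 at 12 h, against 7.67, 7.70, 7.72, 7.83 and 7.99 at 0 h. The times did not overlap in either genotype. The difference was 0.67 (SE 0.10, adjusted p = 3.76e-05, 1.59-fold) in KO livers and 0.55 (SE 0.10, adjusted p = 3.43e-04, 1.46-fold) in WT livers.

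*Nrip1*, the corepressor RIP140, had no change of time that passed. It was 8.73, 8.74, 8.74, 8.74 and 8.77 in KO livers at 12 h, against 8.58, 8.66, 8.73, 8.81 and 8.90 in KO livers at 0 h. In WT livers it was 8.48, 8.65, 8.84, 8.89 and 9.23 at 12 h, against 8.39, 8.54, 8.61, 8.75 and 9.06 at 0 h. The 5 KO mice at 12 h lay within a narrow range (SD 0.014), against an SD of 0.28 in WT mice at 12 h, and the difference in spread was not tested. The changes were 0.0070 (95% interval -0.24 to 0.25, adjusted p = 0.974) in KO livers and 0.14 (-0.10 to 0.39, adjusted p = 0.386) in WT livers, where it was 0.042 without mouse 168 and 0.24 without mouse 145 and passed in neither case.

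None of these genes passed between KO and WT livers at either time. Of the 10 probe sets, 0 passed between KO and WT over both times (0.0117% of all probe sets passed, 3 in number), 0 at 0 h (0% of all), 0 at 12 h (0.0234%, 6 in number) and 0 for the difference between the times (0% of all). At an unadjusted p under 0.05, 2537 of all probe sets differed over both times, 1148 at 0 h, 3216 at 12 h and 1757 in the difference. No probe set of the 10 separated KO from WT mice without overlap at 12 h (2.42% of all did) or at 0 h (0.728% of all). The median difference of the 10 was -0.054 at 12 h, where 9 of 10 were below 0, and 0.0062 at 0 h, where 5 of 10 were. Over all probe sets the median was 0.0013 at 12 h. Both *Ppargc1a* probe sets count among the 9. Also among them were *Ppargc1b* (-0.012), *Rxra* (-0.026), *Nr1h3* (-0.037) and *Hnf4a* (-0.011), which turned above 0 with quantile normalization. Over both times the *Ppara* difference was -0.15 (95% interval -0.30 to -0.00023, unadjusted p = 0.0497, adjusted p = 0.506) and did not pass. Within the 0 h batches it was -0.26, -0.34 and -0.40 in batches 1, 2 and 4, but 0.19 in batch 3. Without WT mice 80 and 170 *Ppara* differed by -0.22 at 0 h and by -0.051 at 12 h. For *Ppard* the difference over both times was 0.030 (-0.11 to 0.17), for *Rxra* -0.084 (-0.20 to 0.030), for *Nr1h3* -0.0062 (-0.092 to 0.079) and for *Hnf4a* -0.076 (-0.20 to 0.046). For *Pparg* it was -0.12 (-0.35 to 0.11), for *Ppargc1b* -0.075 (-0.22 to 0.071) and for *Nrip1* -0.0034 (-0.18 to 0.17). A p that misses the threshold does not show that the genotypes are alike, and these intervals bound what 20 arrays could tell.

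**Figure D3:**
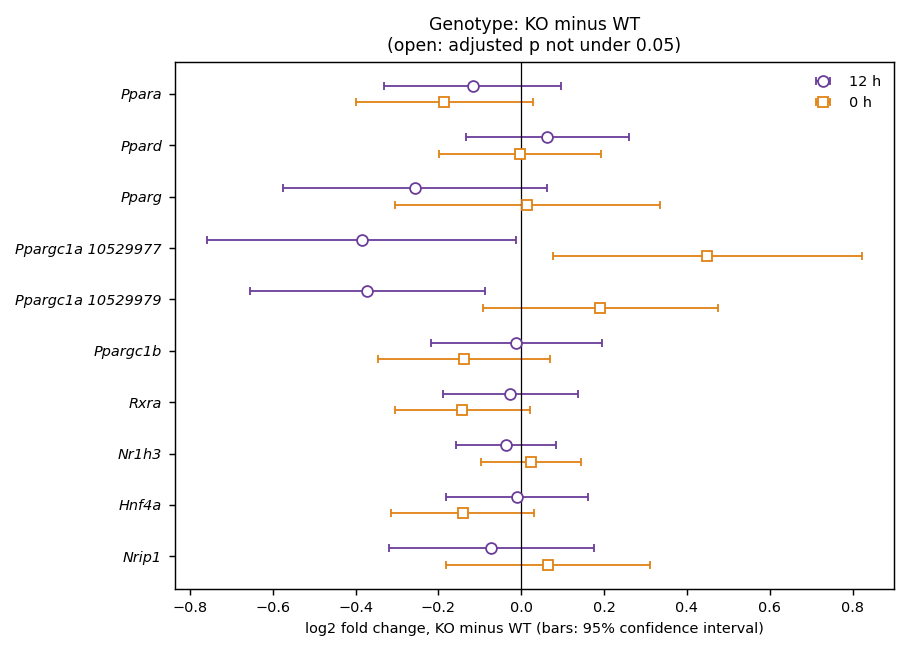
Log2 fold change between KO and WT livers (KO minus WT, horizontal axis) of each probe set at 12 h (circles) and at 0 h (squares), with 95% confidence intervals from limma. No probe set passed an adjusted p of 0.05. Both *Ppargc1a* probe sets lie below 0 at 12 h (-0.38 and -0.37) and above 0 at 0 h (0.45 and 0.19).

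*Ppargc1a* had the widest difference between the genotypes in how the times differed. On probe set 10529977 KO minus WT was -0.38 (95% interval -0.76 to -0.012, adjusted p = 0.383) at 12 h and 0.45 (0.08 to 0.82, adjusted p = 0.987) at 0 h. On probe set 10529979 it was -0.37 (-0.66 to -0.09, adjusted p = 0.264) at 12 h and 0.19 (-0.09 to 0.48, adjusted p = 0.987) at 0 h. The difference of these differences was -0.83 (SE 0.25, 95% interval -1.36 to -0.31, unadjusted p = 0.0035, adjusted p = 0.593) on the first probe set and -0.56 (SE 0.19, -0.96 to -0.16, unadjusted p = 0.0082, adjusted p = 0.614) on the second, and neither passed over all probe sets. Both intervals lie below 0, but the 2 probe sets measure the same gene in the same mice and are not independent.

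The *Ppargc1a* value in WT livers at 0 h rested in part on WT mice 80 and 78, the 2 lowest on both probe sets (5.49 and 5.54, and 7.10 and 6.96). Without WT mice 80 and 170 the difference of differences was -0.64 and -0.45 (adjusted p = 0.833 and 0.860), and with any 1 array left out it ran from -0.95 to -0.72 and from -0.65 to -0.47. The change between 12 h and 0 h in WT livers without mice 80 and 170 was 1.03 and 0.74 and passed on both probe sets. Among the 0 h livers KO minus WT on probe set 10529977 was 0.12 for batch 1 (KO mice 77 and 143, WT mouse 146), 1.04 for batch 2 (KO mouse 1, WT mouse 78), 0.46 for batch 3 (KO mouse 144, WT mice 145 and 80) and -0.14 for batch 4 (KO mouse 76, WT mouse 147). On probe set 10529979 the same batches gave -0.049, 0.79, 0.23 and -0.17. The sign thus differed between batches at 0 h, and batch 2 gave the widest difference on both.

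Across the 20 livers the genes that were higher at 12 h went together, which describes the time of day and the batch they share. The correlations carry no test. *Ppara* correlated with *Rxra* at Pearson r = 0.91 and with *Ppard* at -0.83, and *Ppargc1b* with *Rxra* at 0.92. After removal of the 4 group means these were 0.21, 0.49 and 0.47. *Ppara* and *Ppard*, opposed between 12 h and 0 h, thus varied in the same direction among mice of one group. *Rxra* and *Hnf4a* kept an r of 0.66 within groups (0.86 over all livers), and the 2 *Ppargc1a* probe sets one of 0.73 (0.91 over all). *Pparg* ran against *Ppara* within groups at -0.59 and against *Ppargc1b* at -0.54. *Nrip1* went with *Ppargc1a* probe set 10529979 at 0.58 within groups, and with probe set 10529977 at 0.26.

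**Figure D4:**
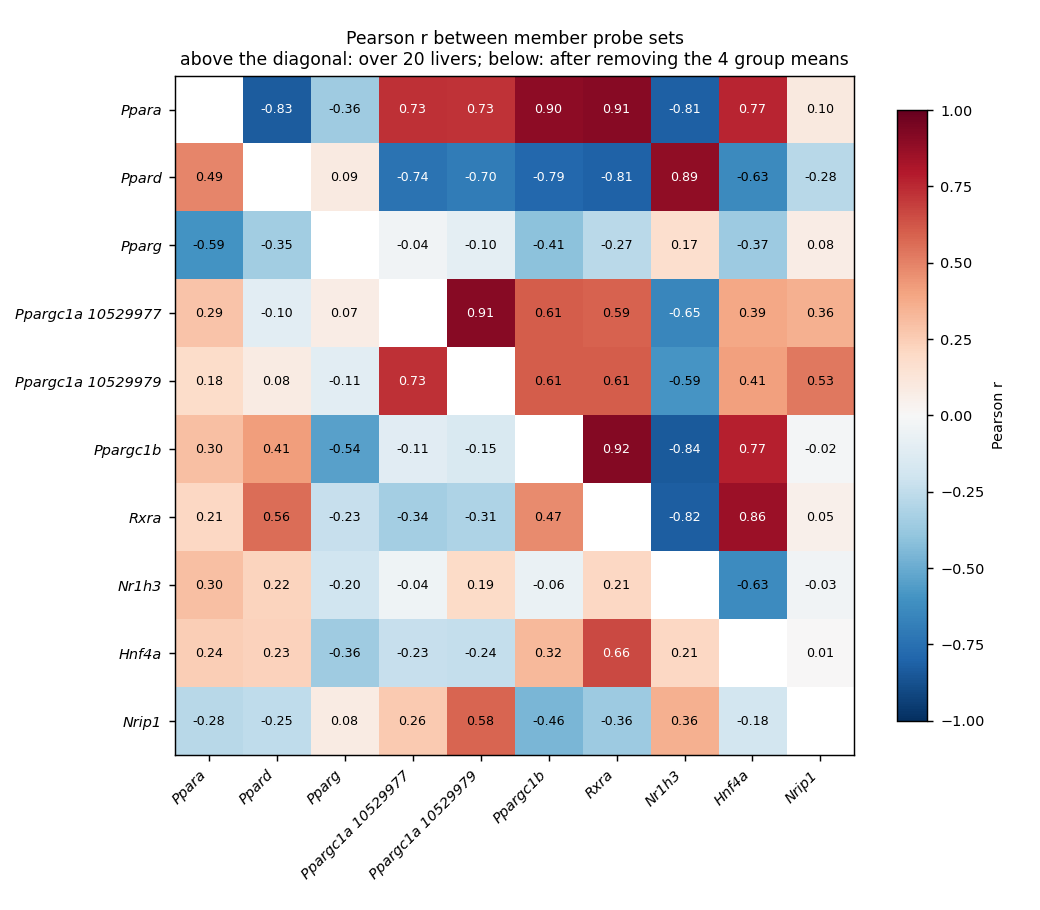
Pearson r between the 10 probe sets, over all 20 livers above the diagonal and, below it, after the mean of each of the 4 groups was removed. Colour runs from -1 (blue) to 1 (red). Blocks of high r over all livers, such as *Ppara* with *Rxra* (0.91), are weaker within groups (0.21).

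Among all probe sets named for 1 gene, those most like each gene that passed between the times were found by Pearson r over 20 livers, where points share the time of day and the batch. *Ppara* was most like *Bap1* (r = 0.98, within groups 0.80) and *Abcg8* (0.97, within groups 0.73), a sterol transporter of the LXR list below. *Ppard* was most like *BC004004* (0.95) and *Mad2l2* (0.95). *Rxra* was most like *Mgrn1* (0.98) and *Akt1* (0.97), with 0.82 for both within groups. *Nr1h3* was most like *Stra6l* (0.95) and *Dhrs9* (0.94), and *Hnf4a* like *Scyl3* (0.90) and *Dcaf5* (0.89). *Ppargc1a* probe set 10529977 was most like *Amn1* (0.90) and *Smim10l1* (0.90), and probe set 10529979 like *Zfp609* (0.89) and *Tcf12* (0.86). *Ppargc1b* was most like *Tbc1d20* (0.96) and *Atg2a* (0.95). *Tcf12* was also close to probe set 10529977 (0.89, within groups 0.83).

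Target genes of the receptors were followed through lists written for this tissue with earlier results of these data known. Of 27 PPARα targets, 23 were measured, and between 12 h and 0 h 5 passed higher and 3 lower in KO livers and 7 higher and 2 lower in WT livers, with medians of 0.0049 in KO and 0.19 in WT. That is 34.8% of the list in KO and 39.1% in WT livers, near the 33.0% and 40.5% that passed among all brighter probe sets, to which 21 of the 23 belong. *Angptl4*, an inhibitor of lipoprotein lipase, was higher at 12 h by 1.13 in KO and 1.03 in WT livers, and *Cpt1a*, which commits fatty acids to mitochondrial oxidation, by 1.07 and 0.83. The ω-hydroxylase *Cyp4a10* was higher by 1.03 in KO and 1.87 in WT livers. Its neighbour *Cyp4a14* passed in WT livers (2.37) and had 0.53 in KO livers, which did not pass, and the thioesterase *Acot3* had 0.54 in KO livers, which did not pass, and was higher by 1.08 in WT livers. *Cyp4a10*, *Cyp4a14* and *Acot3* belong to families of related genes, and hybridization between family members was not tested. *Pdk4*, a brake on glucose oxidation, was lower at 12 h, with log2 changes of -1.75 in KO and -1.10 in WT livers. *Plin2*, a lipid droplet coat protein, changed by -0.70 in KO and -0.74 in WT livers, and *Ehhadh*, of peroxisomal oxidation, by -0.25 in KO livers. The list thus held genes that passed in either direction while *Ppara* itself was higher.

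Of 6 PPARγ targets of fat storage 2 passed in KO livers (33.3%), both lower at 12 h. They were *Lpl*, which frees fatty acids from lipoproteins (-1.47), and the fatty acid carrier *Fabp4* (-0.85). Of all brighter probe sets, to which 4 of the 6 belong, 33.0% passed in KO and 40.5% in WT livers. In WT livers *Lpl* alone passed (-0.68, adjusted p = 0.045), and it lost the call when any 1 of 11 arrays was left out and also with batch as a random block, with an intensity trend and a robust prior, and without WT mice 80 and 170. The median of the 6 was -0.29 in KO and 0.12 in WT livers. Of 10 LXR targets, all among the brighter probe sets, 6 passed in KO livers (60.0%) and 7 in WT livers (70.0%). All that passed were higher at 12 h, while *Nr1h3* itself was lower. Among them the sterol transporters *Abcg5* (1.36 in KO, 1.32 in WT) and *Abcg8* (1.16 and 1.01), the bile acid enzyme *Cyp7a1* (1.16 and 1.14) and the lipogenic factor *Srebf1* (0.84 and 0.65) had the widest changes. The median over the LXR list was 0.31 in KO and 0.47 in WT livers.

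Of 12 PGC-1 partners and targets 5 passed in each genotype, all higher at 12 h, which is 41.7% and, in WT livers, near the share of all brighter probe sets (33.0% in KO and 40.5% in WT). *Lpin1*, a phosphatidate phosphatase and coactivator of PPARα, was higher by 2.53 in KO and 3.09 in WT livers, *Alas1*, the first enzyme of haem synthesis, by 1.81 and 1.44, *Pck1*, of gluconeogenesis, by 1.42 and 1.26, and the factor *Foxo1* by 0.99 and 1.25. The median of the 12 was 0.21 in KO and 0.23 in WT livers. Of 13 measured HNF4α partners and targets, 12 of them among the brighter probe sets, 38.5% passed in KO and 15.4% in WT livers. The shares of all brighter probe sets were 33.0% and 40.5%. Of the list, 1 passed higher in both genotypes (*Cebpa*, 0.41 in KO and 0.31 in WT), and 4 passed lower in KO and 1 in WT livers. These were *Nr0b2* (-1.03), which encodes the repressor SHP, the bile acid enzyme *Cyp8b1* (-0.68), *Apoa2* (-0.24) and the urea cycle enzyme *Otc* (-0.42) in KO livers and *Otc* (-0.31) in WT livers, and the list's median was -0.054 in KO and -0.056 in WT livers.

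The partner receptors and cofactors that passed were mostly higher at 12 h, as *Rxra* was. Of 11 measured receptors that pair with RXR or are other RXRs, 3 passed in KO and 5 in WT livers, all higher at 12 h (27.3% in KO and 45.5% in WT livers, against 33.0% and 40.5% of all brighter probe sets), such as *Nr1i3* (0.64 in KO, 0.88 in WT), *Nr1i2* (0.50 and 0.56) and *Rxrb* (0.31 and 0.33). With centred arrays 5 of these receptors passed in KO livers. Of 11 other coactivators 6 passed higher in each genotype, with the deacetylase *Sirt1*, an activator of PGC-1α, at 0.42 in KO and 0.54 in WT livers and the Mediator subunit *Med1* at 0.23 and 0.36. *Prmt1*, an arginine methyltransferase, passed lower in both (-0.48 in KO, -0.51 in WT), so that 63.6% of the coactivators passed in each genotype. Of 7 measured corepressors of the NCoR complex and others 4 passed in KO (57.1%) and 5 in WT livers (71.4%, or 3 with quantile normalization), all higher, among them *Hdac3* (0.31 and 0.46), *Tbl1x* (0.43 and 0.42) and *Tbl1xr1* (0.28 and 0.37). The medians in KO and WT livers were 0.15 and 0.098 for receptors, 0.23 and 0.26 for coactivators and 0.28 and 0.26 for corepressors. Clock genes, as a check of the time labels, moved further, with 13 of 13 measured passing in KO and 11 of 13 in WT livers: *Dbp* by 2.99 in KO and 2.80 in WT livers, *Nr1d1* by 1.57 and 1.38, *Per2* by 1.21 and 1.29 and *Arntl* by -2.56 and -2.14.

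**Figure D5:**
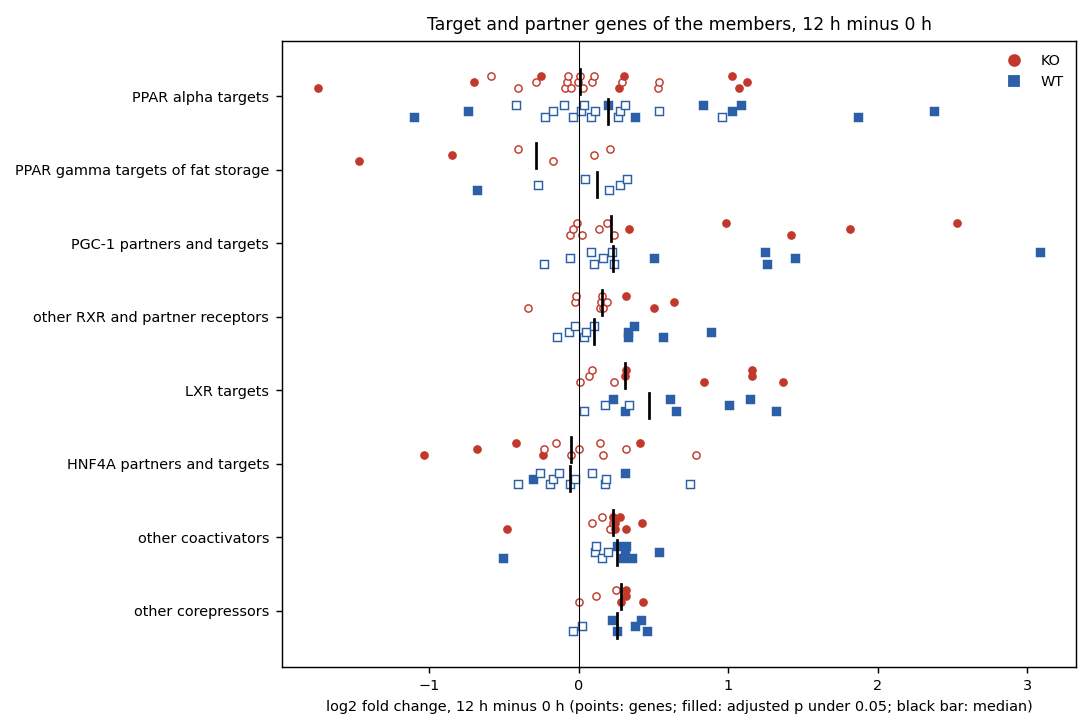
Log2 fold change (12 h minus 0 h, horizontal axis) of each measured gene of 8 lists of targets and partners, in KO livers (circles) above WT livers (squares). Filled symbols passed an adjusted p of 0.05 and black bars are medians. The filled LXR targets all lie above 0, while PPARα targets lie on both sides.

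Between KO and WT no gene of these 8 lists passed at either time or over both, although under some alternative settings 1 to 3 genes passed in 3 of the lists, the most being 3 PPARα targets at 12 h without WT mouse 169. At 12 h the PPARα targets had a median of -0.18, against 0.0013 over all probe sets. Since the lists were chosen with earlier results of these data known, such a median is a description and no independent test. The widest PPARα target at 12 h was *Cyp4a14* (-2.49, SE 0.47, adjusted p = 0.0529), with means of 6.77 ± 0.52 in KO and 9.26 ± 1.52 in WT livers. The widest of the other lists at 12 h, none of which passed, were *Mogat1* of the PPARγ targets (-0.51, adjusted p = 0.332), *Foxo1* of the PGC-1 list (-0.37, adjusted p = 0.109) and *Mylip* of the LXR targets (-0.42, adjusted p = 0.0794). They were *Nr1i3* for partner receptors (-0.47, adjusted p = 0.137), *Onecut1* for the HNF4α list (0.45, adjusted p = 0.646), *Med1* for coactivators (-0.17, adjusted p = 0.359) and *Hdac3* for corepressors (-0.18, adjusted p = 0.308). At 0 h the PPARα targets had a median of -0.11, and the widest was *Cyp4a10* (-0.76, SE 0.35, adjusted p = 0.987).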

How the data were processed

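Livers of 20 mice were measured on GeneChip Mouse Gene 1.0 ST arrays, 1 array per mouse. The values deposited by the authors are log2 expression per probe set after RMA, which the submitters' processing notes name without a version, so background and normalization were settled before deposit. Software and settings of that step are not given in the sources used here. The table lists 35557 probe sets, of which 9868 hold no value and the remaining 25689 entered the fit unfiltered. Genes were named from the platform annotation, and all 10 probe sets of the genes described matched a RefSeq gene by identifier. Groups came from the labels. A linear model with 4 group means over all 20 arrays was fitted by lmFit and eBayes (limma 3.58.1, R 4.3.3), p-values were adjusted by Benjamini-Hochberg over all 25689 probe sets, and the threshold was 0.05. KO minus WT was taken at 0 h, at 12 h and over both, together with the difference between the times, and 12 h minus 0 h within each genotype. The model was tested on simulated data with independent normal noise and no batch effect. That test therefore cannot bear on the batch that goes with time of day. The number of arrays limits the precision.

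The genes described, the lists and the markers were chosen with earlier results of these data known. Text names all 10 genes, *Crem*, 4 clock genes, up to 4 passing genes per list and direction with the widest changes (the widest one where none passed), and the 2 most similar genes of each gene that passed. Where a gene of a list had several probe sets, the brightest stood for it. Alternatives were batch as a fixed or random block, a fit on just the groups at issue, a filter at the median brightness, quantile normalization, median centring, array weights, a robust prior with an intensity trend, leaving out each array, and leaving out WT mice 80 and 170. Promoter windows are RefSeq's, of GRCm38.p6.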

Additional observations from a re-analysis of the deposited data

How the results depend on the processing

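The count of passing probe sets among the 10 kept within 1.5 times its value in every alternative run, from 0 in each comparison of genotype to 6 in KO and 6 to 8 in WT livers for time. No change of time that passed turned its direction, and besides *Nr1h3* and *Hnf4a* in WT livers, given above, no value of the 10 crossed the threshold. Values that turned sign all lay close to 0 and passed nowhere. With batch as a fixed block these were *Ppargc1a* 10529977 (-0.012), *Nr1h3* (0.011) and *Nrip1* (0.0087) for KO minus WT over both times, and *Ppard* (0.024) and *Pparg* (-0.039) at 0 h. With quantile normalization they were *Nr1h3* (0.026) and *Nrip1* (0.022) over both times, *Ppard* (0.012) at 0 h, *Ppargc1b* (0.0095), *Rxra* (0.022), *Nr1h3* (0.012) and *Hnf4a* (0.049) at 12 h, *Pparg* in WT livers (-0.025) and *Nrip1* in KO livers (-0.054) between the times. Without WT mice 80 and 170 they were *Nr1h3* over both times (0.0023) and *Ppargc1b* at 12 h (0.054), and with arrays centred on their medians *Pparg* at 0 h (-9.6e-05). Leaving out 1 array at a time, KO minus WT over both times ran from -0.027 to 0.091 for *Ppargc1a* 10529977, from -0.023 to 0.0067 for *Nr1h3* and from -0.046 to 0.048 for *Nrip1*. At 0 h it ran from -0.045 to 0.058 for *Ppard*, from -0.11 to 0.13 for *Pparg*, from -0.010 to 0.050 for *Nr1h3* and from -0.0039 to 0.16 for *Nrip1*. At 12 h it ran from -0.064 to 0.054 for *Ppargc1b*, from -0.061 to 0.0079 for *Rxra*, from -0.051 to 0.032 for *Hnf4a* and from -0.16 to 0.031 for *Nrip1*. Between the times *Pparg* in WT livers ran from -0.077 to 0.091 and *Nrip1* in KO livers from -0.032 to 0.047. The cause was not tested. Of PPARα targets, 0 of which passed between KO and WT, 3 passed at 12 h without WT mouse 169, 1 passed at 12 h without WT mouse 167 or 170, without WT mice 80 and 170, without KO mouse 18, with centred arrays and with only the brighter probe sets, and 1 passed over both times without WT mouse 170 and without WT mice 80 and 170. Of LXR targets 1 passed at 12 h with centred arrays, with only the brighter probe sets and without WT mouse 167 or 169, and of partner receptors 1 passed over both times without KO mouse 144. No paired analysis was possible because the mouse numbers are unique to each group, and the batches that hold both genotypes at 0 h served as a block instead.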

Other observations

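*Pparg* and *Nrip1*, which passed in no comparison, were also ranked by likeness, and these genes are named after their values were seen. Over the 20 livers *Pparg* was most like *Mogat1* (r = 0.73, within groups 0.71), an acyltransferase of triglyceride synthesis. *Mogat1* was dim, with group means of 5.57 to 6.08 against array medians of 7.07 to 7.24. It was also on the list of PPARγ targets. There it changed by -0.40 in KO and 0.33 in WT livers between 12 h and 0 h and passed in neither. *Nrip1* was most like *Olfr781* (0.74) and *Klf12* (0.70). Of the genes most opposed to one that passed, *Wee1*, a cell cycle kinase, ran against *Ppard* at -0.95, with changes of 2.48 in KO and 2.53 in WT livers.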
